A study of Homo sapiens with 9 samples.

Results

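The baseline transcriptome of unperturbed U251 cells, an established line grown from a human glioblastoma, was described from 3 RNA-seq samples out of the 9 samples of the series. The members were chosen by title, as the control RNA-seq replicates 1 to 3, and by nothing that was measured. Their genotype is given as wild type (control), and no passage or transfection is stated for them. The growth text attached to all samples describes ultraviolet crosslinking for iCLIP, and it does not say whether the RNA-seq cells were crosslinked too. The other samples were 3 RNA-seq samples after knockdown of the RNA-binding protein Musashi1 and 3 iCLIP samples of control cells, and they were not used here. The study as a whole asked how expression and splicing respond to loss of Musashi1. A single line stands for 1 tumour, and nothing states that the 3 samples came from separate cultures, so the spread between them may be technical.

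Glioblastoma is a tumour of the astroglial lineage, and its cells carry mixtures of the programmes of neural stem cells, astrocytes, oligodendrocyte precursors, neurons and mesenchymal tissue. Expression subtypes called proneural, classical and mesenchymal are named after the programme that dominates. Recurrent genetic targets are the receptor tyrosine kinase, phosphoinositide 3-kinase and retinoblastoma pathways, with loss of CDKN2A among the most frequent events. Long culture in serum is known to lower glial differentiation markers and to favour adhesion and matrix genes.

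The 3 libraries held 47277016, 38494503 and 32919299 gene counts, so 1 read was worth 0.0212, 0.026 and 0.0304 CPM, the gene count per 1000000 gene counts of its library. Throughout, 3 values in a row belong to control replicates 1, 2 and 3. Every pair differed by more than sampling noise, with a chi-square per gene of 22.7 for replicates 1 and 2, 211 for 1 and 3, and 214 for 2 and 3. Over the 11785 genes with at least 1 CPM in each library, log2(CPM + 1) correlated at 0.995 across genes between replicates 1 and 2, and at 0.943 and 0.938 between replicate 3 and either of them. Replicate 3 therefore stood apart, and its difference followed the GC content of the transcript. Among 10213 genes with a mean of at least 5 CPM and a known GC content, which are 98.2% of such genes, the median log2 ratio of replicate 3 to the mean of the others was 0.54 for transcripts under 40% GC and -1.47 for those over 60% GC. Across these genes the ratio and the GC content had a Pearson r of -0.88, as a description over genes that share the same 3 libraries. The same r for replicate 1 against replicate 2 was -0.21. First exons, which are often rich in GC, had a median density of 13.7%, 14.6% and 5.22% of that of the internal exons of the same gene, whereas last exons had 55.7%, 53.8% and 60.1%. What made the libraries differ was not tested.

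**Figure D1:**
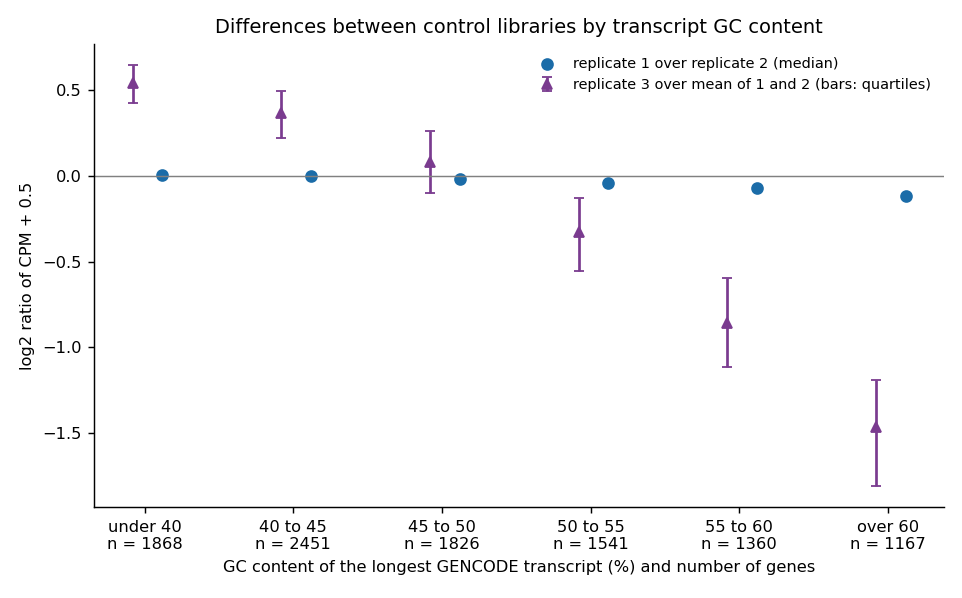
Median log2 ratio of CPM (with 0.5 added) between control libraries, by GC content of the longest GENCODE transcript of each gene, for genes with a mean CPM of at least 5. Triangles compare replicate 3 with the mean of replicates 1 and 2, with bars from the lower to the upper quartile over genes, and fall from 0.54 to -1.47, while circles compare replicate 1 with replicate 2 and stay between 0.01 and -0.12.

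U251 control cells expressed a little over 1 in 2 of the annotated genes. A gene was called detected when it had at least 1 CPM in each library, which held for 11785 of 20848 genes (56.5%). A further 3884 genes (18.6%) had no read in any library, and 5179 lay between. Without replicate 3 the detected genes numbered 12157. Each count of a gene list is given with its share, to be set beside these 56.5%, and with the number without replicate 3. Of genes whose symbol matched RefSeq as protein-coding, 11247 of 18087 (62.2%) were detected and they held 98.3%, 98.2% and 98.2% of the counts. Of the matched long noncoding RNA genes, 106 of 449 were detected. Small RNA genes had few reads in these libraries, with 6 of 339 snoRNA genes and 0 of 606 microRNA genes detected. For levels of different genes, CPM was divided by the summed exon length in kb. The median over all genes was 1.81 CPM per kb, and over detected genes it was 10.9, with deciles at 1.49 and 58.0.

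Counts were spread over many genes rather than held by a few. The 10 most abundant genes took 5.27%, 5.08% and 4.15% of the counts, the 100 most abundant 17.7%, 17.4% and 16.2%, and the 1000 most abundant 51.1%, 50.2% and 51.3%. It took 950, 989 and 942 genes to reach 50% of all counts. A mean of 1000 CPM was passed by 76 genes and a mean of 100 CPM by 2489.

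The most abundant transcripts encoded the actin cytoskeleton, translation, glycolysis and protein folding. ACTB (beta-actin, chromosome 7, 5533305 to 5536758 in hg18) led with 11823, 10718 and 6346 CPM. EEF1A1, which delivers aminoacyl-tRNA to the ribosome, followed with 8672, 8331 and 9094 CPM. PKM2, the table's symbol for the muscle-type pyruvate kinase gene, had 5319, 5545 and 3496 CPM and GAPDH, another glycolytic enzyme, 4791, 5115 and 2585. ACTB, PKM2 and GAPDH were each lowest in replicate 3, below both other libraries, whereas EEF1A1 was highest there. The GC content of their transcripts was 55.1%, 53.3% and 58.8%, against 46.1% for EEF1A1. The stress-related chaperone HSP90AA1 had 4339, 3349 and 4974 CPM, and its constitutive partner HSP90AB1 had 2645, 2536 and 2721. CD44, the hyaluronan receptor, ranked 6th by mean CPM with 3768, 3709 and 3621 and was among the steadiest of the leading genes. MAP1B, a microtubule-associated protein best known from growing axons, had 2764, 2701 and 2647 CPM. The nuclear RNA MALAT1 was the only noncoding gene among the leading 25, with 2657, 3253 and 3299.7 CPM. FLNA, which crosslinks actin filaments, and EEF2, the translocation factor, were near 2692 ± 1403 and 1901 ± 908 CPM (mean ± SD, n = 3) and both were more than 2-fold lower in replicate 3 than in the others, with transcripts of 62.2% and 59.9% GC.

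**Figure D2:**
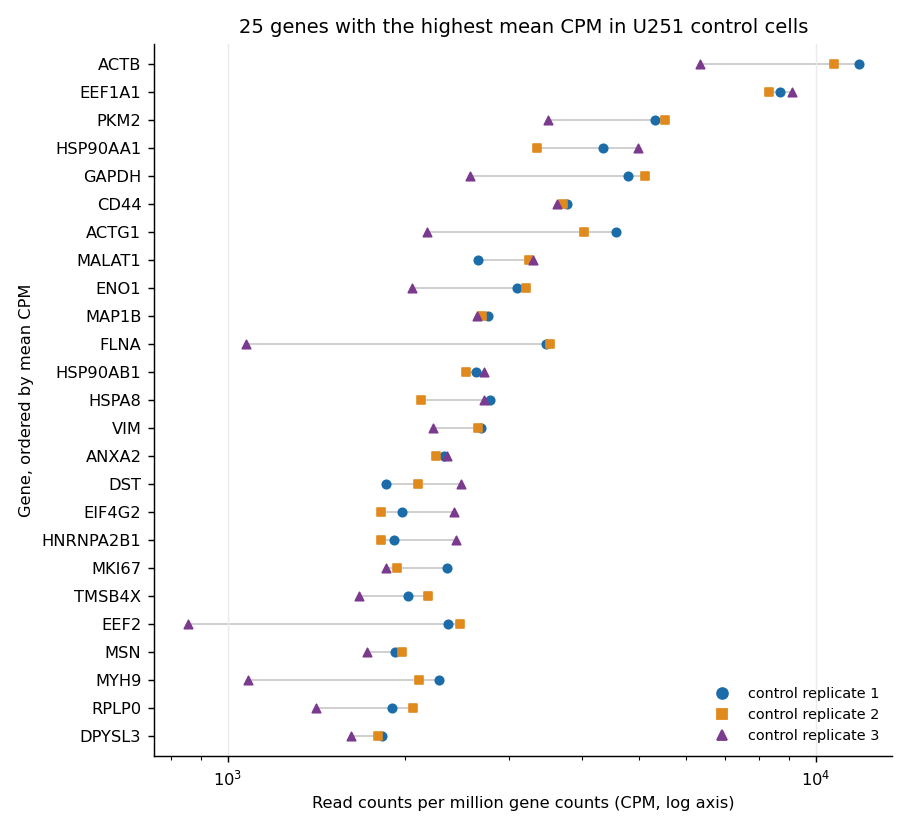
CPM of the 25 genes with the highest mean CPM in each of the 3 control libraries, on a log axis, with a grey line from the lowest to the highest library. ACTB and EEF1A1 lie apart from the rest, and replicate 3 (triangles) is far below the others for FLNA, EEF2 and MYH9.

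Dividing by length brought short transcripts forward. ACTB still led, at 5314 ± 1598 CPM per kb (SD, n = 3), followed by GAPDH at 3179 ± 1051. The third, TMSB4X, encodes thymosin beta 4, which sequesters actin monomers, and stood at 3118 ± 418 CPM per kb. The iron storage chains were high as well, FTL at 1596 ± 944 and FTH1 at 1248 ± 257. ANXA2, a calcium-dependent membrane binding protein, was at 1278 ± 28.8 and VIM, the intermediate filament vimentin, at 1184 ± 122. The invariant light chain of class I antigen presentation, B2M, was at 1150.3 ± 227. Among the 25 highest by this measure, 10 were ribosomal protein genes, led by RPS2 (1812 ± 610.1) and RPL41 (1536 ± 153).

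Biosynthetic programmes were on nearly in full. Of the cytosolic ribosomal protein genes, 75 of 77 (97.4%, and 75 without replicate 3) were detected, with a list median of 496 CPM per kb, and they took 3.87%, 3.59% and 3.05% of the counts. RPL21, a member that did not pass, was listed at 0 in each library. The annotation (GENCODE 29) names 66 processed pseudogenes after RPL21, 61 after GAPDH and 37 after EEF1A1. GAPDH and EEF1A1 were among the most abundant genes. The treatment of reads with several matching places is not given in the sources used here. Whether such copies touch the level of RPL21 was not tested. H3F3A, a histone H3.3 gene with 5 named processed pseudogenes, was likewise at 0, whereas H3F3B, which encodes the same protein, had 678, 592 and 707 CPM. A value of 0 in these tables is reported as no read and not as absence. All 35 of 35 members of the list of translation factors and related genes passed, led by EEF1A1 and by TPT1 at 927 ± 70.2 CPM per kb. So did all 53 of 53 nuclear-encoded genes of oxidative phosphorylation, led by COX7B at 577 ± 118 and ATP5B, a catalytic subunit of ATP synthase, at 497 ± 46.

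Of the listed glycolytic enzymes and transporters 21 of 32 (65.6%, and 22 without replicate 3) were detected, and they took 2.01%, 2.09% and 1.42% of the counts, lowest in replicate 3. ENO1 had 3099.7, 3216 and 2054 CPM, PGK1 1666, 1676 and 1843 CPM and LDHB 731, 696 and 945 CPM. LDHA, named after its values were seen, had 29.6, 25.1 and 34.1 CPM and has 6 named processed pseudogenes. Whether reads shared with these copies touch its level was not tested. The liver pyruvate kinase PKLR was below the detection rule, and HK3, PGK2 and LDHC had no read. Of the chaperones 30 of 31 (96.8%, and 31 without replicate 3) were detected, headed per length by HSPA8, the constitutive heat shock cognate protein (1128 ± 163 CPM per kb).

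Genes of the cell cycle were on throughout. All 36 of 36 proliferation genes were detected, and their list median was 67.2 CPM per kb. MKI67, the Ki-67 antigen that coats mitotic chromosomes, had 2357, 1936 and 1855 CPM, and TOP2A, the topoisomerase of dividing cells, had 1009.5, 802 and 1225. CCNB1, the cyclin that drives entry into mitosis, had 418, 319 and 427 CPM. TYMS and RRM2, which supply deoxynucleotides, were at 205 ± 12.5 and 131 ± 16.1 CPM per kb. Replication-dependent histone genes, whose messages normally lack a poly(A) tail, were hardly seen, with 4 of 55 (7.27%, and 5 without replicate 3) detected and a summed level of 28.4, 27.5 and 15 CPM. The histone variants with ordinary polyadenylated messages gave 9 of 12 (75%, and 9 without replicate 3) detected and a summed 2013, 1860.4 and 1967 CPM, with H2AFZ alone at 511, 492 and 599. The labels name total RNA as the molecule, and whether polyadenylated RNA was selected is not given in the sources used here.

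Pyruvate kinase was expressed almost wholly with the exon of its M2 form. The gene splices in either exon 9 (M1, typical of muscle and brain) or exon 10 (M2, typical of proliferating cells), and both are 167 nucleotides long, so their reads compare directly. The sequences, read from GENCODE 29 transcripts in GRCh38 on the minus strand of chromosome 15, are shown because the reads separate the 2 exons by the 62 positions at which they differ, written in capitals.
PKM exon 9: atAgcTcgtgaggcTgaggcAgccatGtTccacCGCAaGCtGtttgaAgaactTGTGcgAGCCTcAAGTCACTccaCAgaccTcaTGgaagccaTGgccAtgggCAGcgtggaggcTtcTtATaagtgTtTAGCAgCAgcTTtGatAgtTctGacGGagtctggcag
PKM exon 10: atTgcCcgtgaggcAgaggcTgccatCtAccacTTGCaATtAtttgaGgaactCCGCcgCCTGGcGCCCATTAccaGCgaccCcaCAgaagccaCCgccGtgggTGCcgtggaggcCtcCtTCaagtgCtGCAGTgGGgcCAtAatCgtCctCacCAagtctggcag
Exon 9 (72203022 to 72203188) held 1020, 1043 and 573 reads and exon 10 (72202454 to 72202620) held 20042, 19169 and 5360. Exon 10 thus took 95.2%, 94.8% and 90.3% of the reads of the pair, or 93.4% ± 2.69 (SD, n = 3). It was the larger in every library, and the share was lowest in replicate 3, in which exons 10 to 12 were all low. The 105 shared positions (62.9%) are spread along the exon, and a read across a junction can count in more than 1 exon.

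Neural stem and radial glia markers were the best represented lineage list. Of these, 27 of 32 (84.4%, and 27 without replicate 3) were detected, against 56.5% of all genes, with a list median of 13.8 CPM per kb beside 1.81 for all genes. As 17 of the 32 genes also stand in other lists, the share does not stand for this lineage alone. VIM had 2696, 2664 and 2229 CPM, and NES, the intermediate filament nestin of neural progenitors, 871, 787 and 574. SOX2, the transcription factor that maintains neural stem cells, had 145, 138 and 163 CPM. FABP7, the brain lipid-binding protein of radial glia, had 39.8, 39.6 and 42 CPM, and the forebrain and eye field factor PAX6 24.5, 27.1 and 28.1. The stem cell surface antigen PROM1 (CD133) had 0, 3 and 2 reads, and the progenitor genes SOX1 and HES5 had none.

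Of the astrocyte markers 16 of 30 (53.3%, and 17 without replicate 3) were detected, near the 56.5% of all genes, and 4 of 6 of the defining ones. The list median was 1.05 CPM per kb against 1.81. The highest per length were the regulator ID3 (87.6 ± 56.7 CPM per kb), the secreted chaperone CLU (63.2 ± 17.2) and GJA1, the astrocyte gap junction protein connexin 43 (59.5 ± 15). GFAP, the intermediate filament that defines astrocytes, had 101, 72.3 and 18.2 CPM. Its order was replicate 1, then 2, then 3, with a 5.56-fold gap between the highest and the lowest, and its transcript has 57% GC. The transcription factors SOX9 and NFIB, which act in the switch to gliogenesis, had 100.3, 98.6 and 73 and 269, 298 and 344 CPM. Of the glutamate transporters, SLC1A3 had 12, 10.6 and 14.5 CPM and SLC1A2 7.06, 9.3 and 12.5, whereas the calcium-binding protein S100B had 2.18, 1.12 and 1.09. The genes of mature astrocytes were close to 0, AQP4 with 0, 2 and 0 reads, ALDH1L1 with 0, 2 and 0 and the connexin GJB6 with none. In bulk RNA, few cells with a high level and many with a low level cannot be told apart.

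**Figure D3:**
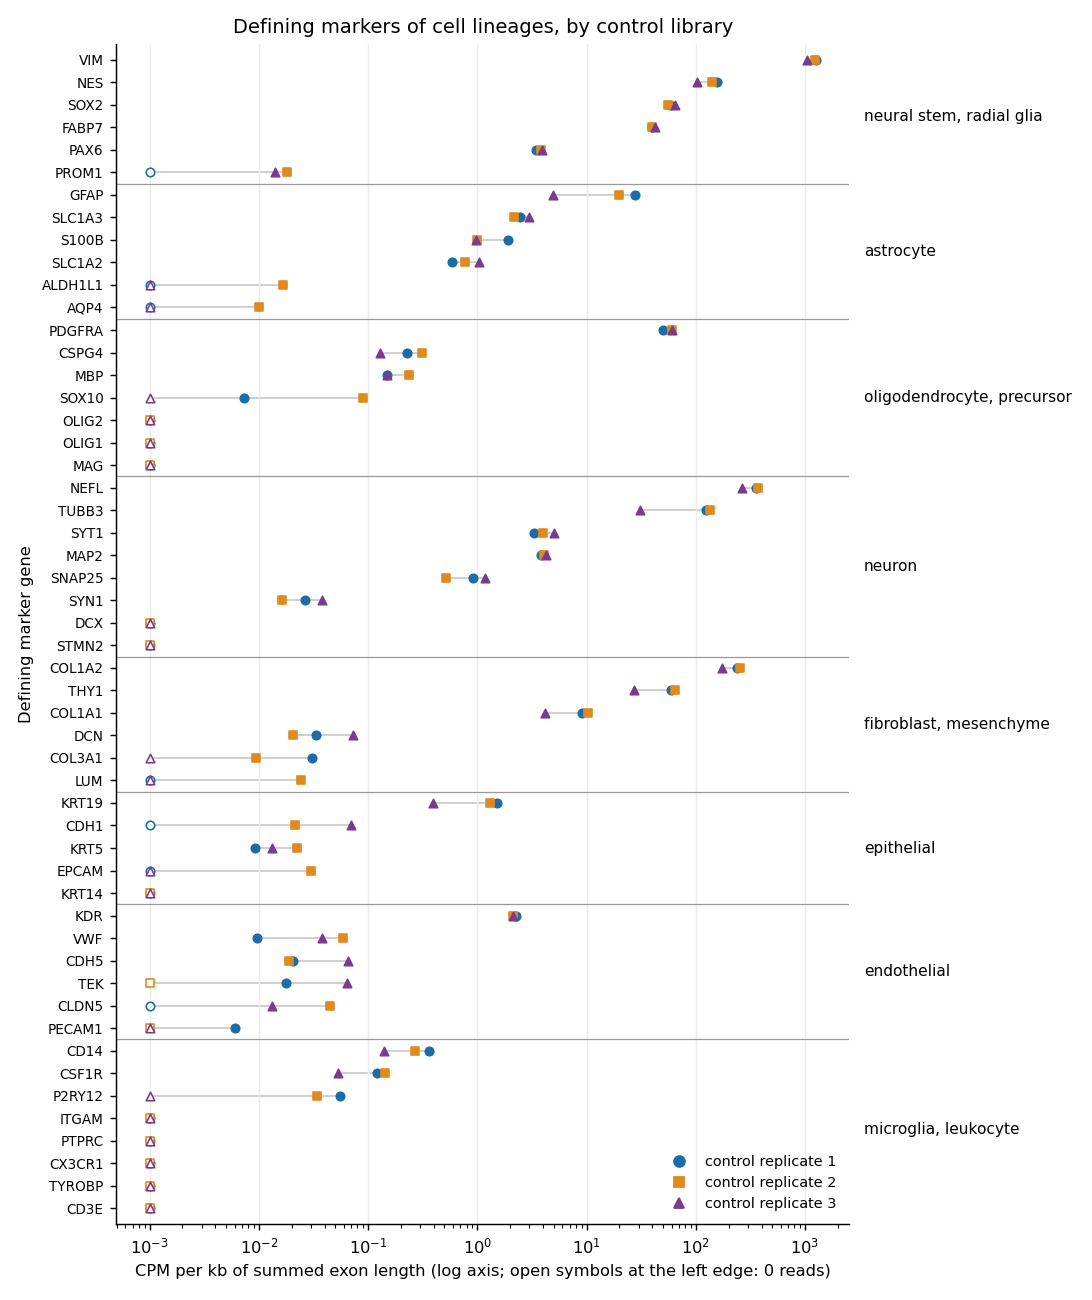
CPM per kb of summed exon length for defining markers of 8 lineages in each control library, on a log axis, with open symbols at the left edge for 0 reads. VIM, NES, SOX2, PDGFRA, NEFL and COL1A2 are among the highest of their groups, and OLIG1, OLIG2, MAG, DCX, STMN2 and PTPRC (the leukocyte antigen CD45) are at 0 in every library.

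Of the oligodendrocyte list 7 of 25 (28%, and 8 without replicate 3) were detected, below the 56.5% of all genes, and 3 of 8 of its defining markers. PDGFRA, the receptor for platelet-derived growth factor on precursor cells, had 332, 401 and 395 CPM. It also stands in the fibroblast and mesenchyme list, so its level does not mark this lineage alone. OLIG1, OLIG2 and the myelin glycoprotein MAG had no read, and SOX10 had 1, 10 and 0 reads. CNP, which is also expressed outside myelin, had 115, 119 and 53.7 CPM. A count of 0 allows up to 0.0635, 0.0779 and 0.0911 CPM (3 reads in each library, counting error only).

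Few genes of the neuron list were detected, though 5 of its 8 defining markers were. NEFL and TUBB3 held most of the summed level of the list. Of its members 7 of 32 (21.9%, and 9 without replicate 3) were detected, below the 56.5% of all genes, and 12 had no read. NEFL, the light neurofilament chain, had 1277, 1324 and 945 CPM and TUBB3, the neuronal class III tubulin, 210.5, 232 and 53.3, the latter lowest in replicate 3 with a transcript of 61.2% GC. MAP2, of dendrites, had 38.2, 40.9 and 42.6 CPM and SYT1, the calcium sensor of synaptic vesicles, 17.7, 21.2 and 27.1. GAD1, which makes the transmitter GABA, had 40.4, 39.5 and 35.9 CPM. By contrast DCX and STMN2, of young neurons, GAD2, INA, NEUROD1 and the vesicular transporters SLC17A6 and SLC32A1 had no read, and the synaptic vesicle gene SYN1 had 4, 2 and 4.

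Of the fibroblast and mesenchyme list 20 of 27 (74.1%, and 20 without replicate 3) were detected, above the 56.5% of all genes, and 3 of 6 of its defining markers. Among them were COL1A2, a type I collagen chain, at 1286, 1383 and 949.5 CPM, CDH2 (N-cadherin) at 299, 261 and 283 and the surface glycoprotein THY1 at 142, 155 and 65.1. COL1A1, the partner chain of COL1A2, was at 7.9 ± 3.27 CPM per kb against 223 ± 42 for COL1A2, so the 2 chains differed by more than their spread. The markers of stromal fibroblasts were near 0, with 8, 2 and 0 reads for COL3A1, 4, 2 and 6 for DCN and 0, 2 and 0 for LUM. Of the matrix list 46 of 51 (90.2%, and 48 without replicate 3) were detected, taking 1.64%, 1.58% and 1.26% of the counts. SPARC, a collagen-binding matricellular protein, led it at 1637, 1589.7 and 1249.9 CPM. THBS1 (thrombospondin 1) had 1286, 879.5 and 823 CPM and CTGF, a target of the YAP pathway, 684, 593 and 609. Both were highest in replicate 1.

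Markers of other tissues were detected to different extents, from none for muscle, liver and blood to 50% of the pericyte list. Each of these tissue lists lay below the 56.5% of all genes. Of the epithelial list 7 of 21 (33.3%, and 8 without replicate 3) were detected, headed by the simple keratins KRT18 (195, 218 and 171 CPM) and KRT8 (189.9, 268 and 119.7 CPM). The defining epithelial genes gave 0 of 5 detected: the junction proteins CDH1 and EPCAM had 0, 4 and 11 and 0, 2 and 0 reads, and KRT14 none. Within the intermediate filaments the hair keratin KRT81 reached 1082, 971 and 246 CPM, a 4.4-fold range with replicate 3 lowest (transcript GC 62.3%), and its reads may be shared with near-identical hair keratin genes. Of the endothelial list 4 of 18 (22.2%, and 5 without replicate 3) were detected, and 1 of 6 of its defining markers. ENG (22.2, 25 and 9.87 CPM) and the receptor KDR (13.7, 13 and 12.8 CPM) were the highest, while PECAM1 had 1, 0 and 0 reads. Among microglia and leukocyte markers 1 of 23 (4.35%, and 1 without replicate 3) was detected, the lysosomal protein CD68 (6.26, 6.13 and 3.86 CPM), and the summed level of the list was 7.95, 8.05 and 4.83 CPM. PTPRC, CD3E, ITGAM, TYROBP and CX3CR1 had no read. Of the skeletal muscle, liver and blood markers 0 of 16 (0%, and 1 without replicate 3) passed, and of the neural crest and melanocyte markers 3 of 18 (16.7%, and 3 without replicate 3), TFAP2A with 26.4, 26.6 and 17.3 CPM and MITF with 12.6, 12 and 21 CPM the highest. Pericyte and smooth muscle genes gave 8 of 16 (50%, and 9 without replicate 3), and 5 of 6 of the defining ones, which were low apart from ABCC9, a subunit of potassium channels (30.3, 37 and 36.4 CPM). RGS5 had 3.17, 2.47 and 3.98 CPM and the receptor PDGFRB 3.24, 4.99 and 2.25, while CALD1, an actin-binding protein that many cell types share, had 399, 329.9 and 419.8.

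Of the subtype gene sets, the mesenchymal one had the most members detected, 42 of 48 (87.5%, and 44 without replicate 3), with a median of 30.9 CPM per kb. The classical set had 21 of 30 (70%, and 21 without replicate 3) and a median of 2.79, and the proneural set 21 of 41 (51.2%, and 23 without replicate 3) and 0.599. The same quantities over all genes were 56.5% and 1.81 CPM per kb, and no test between the sets was made. Of the mesenchymal, classical and proneural genes, 20, 12 and 16 also stand in other lists. The shares therefore do not stand for a subtype alone. Of the mesenchymal genes, ANXA2 and VIM were joined by ANXA1, an anti-inflammatory annexin (1158, 1109 and 1500.5 CPM), the small calcium-binding S100A6 (461, 468 and 289 CPM) and S100A10 (393, 419.9 and 525 CPM), and the galectin LGALS1 (263, 243 and 71.6 CPM). CHI3L1, a gene widely used to mark this subtype and named after its values were seen, had 2, 0 and 3 reads. The proneural genes that were on included the cytoskeletal PFN2 (523, 541 and 647 CPM), STMN1 (606, 544 and 710.5 CPM) and MARCKS (575, 581 and 909.6 CPM), whereas OLIG1, OLIG2, GPR17 and DCX had no read. The classical set was headed by NES, followed by TRIP6 (36.1 ± 14.1 CPM per kb), the neural transcription factor POU3F2 (25.1 ± 0.496) and SOX9 (23 ± 3.89).

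Most glioma driver and suppressor genes were transcribed, and a small group had no read. Of the list 49 of 59 (83.1%, and 50 without replicate 3) were detected. Its receptors included EGFR at 139.5, 156 and 149 CPM, MET at 224, 202 and 308, FGFR1 at 81.4, 89.1 and 42.9 and PDGFRA as given above. KIT (2.58, 3.01 and 1.97 CPM) and ERBB2 (30.7, 39.6 and 18.8 CPM) were lower. Per length PDGFRA was highest of these, at 57.2 ± 5.84 CPM per kb against 36.6 ± 8.36 for MET and 22.5 ± 1.25 for EGFR, and the ranges of PDGFRA and MET over the libraries did not overlap. The ubiquitin ligase MDM2 had 177, 166 and 236 CPM and its relative MDM4 98, 106 and 119.5. In the retinoblastoma pathway RB1 had 143, 131 and 206 CPM, the kinase CDK4 237, 235 and 204, its relative CDK6 88.2, 73.1 and 106 and the cyclin CCND1 698, 596 and 604, while the inhibitors CDKN2A, CDKN2B and CDKN2C and the cyclin CCND2 had no read.

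In the growth factor signalling arm, NF1, the brake on RAS, had 51.6, 68 and 86.5 CPM. PIK3CA had 74.3, 84.7 and 140.1 CPM, PIK3R1 85.6, 73.9 and 102, and the kinases AKT1 and AKT2 were at 37.1 ± 17.9 and 17.6 ± 8.54 CPM per kb. Both were lower in replicate 3 than in both others, with transcripts of 62.1% and 58.3% GC. NRAS had 208, 184 and 279 CPM, BRAF 12.8, 14.9 and 15.7 and PTPN11 424, 419.7 and 538. Chromatin and metabolic genes of glioma were on: ATRX had 453, 492 and 713 CPM, SETD2 161, 176 and 220.3, EZH2 111, 110.4 and 129.6, and the isocitrate dehydrogenases IDH1 and IDH2 93.8, 113 and 121 and 40, 45.2 and 27.9. MYC had 70.8, 65.6 and 40.2 CPM and MYCN no read. TERT, the catalytic subunit of telomerase, was low but present in each library with 173, 171 and 51 reads (3.66, 4.44 and 1.55 CPM). TERC, its RNA template, had 0, 3 and 1 reads. The DNA repair gene MGMT, which removes alkyl groups from guanine and whose silencing is known to sensitise glioblastoma to temozolomide, had no read, and GLI1 had 0.381, 0.442 and 0.273 CPM. Expression levels say nothing of mutations in these genes.

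**Figure D4:**
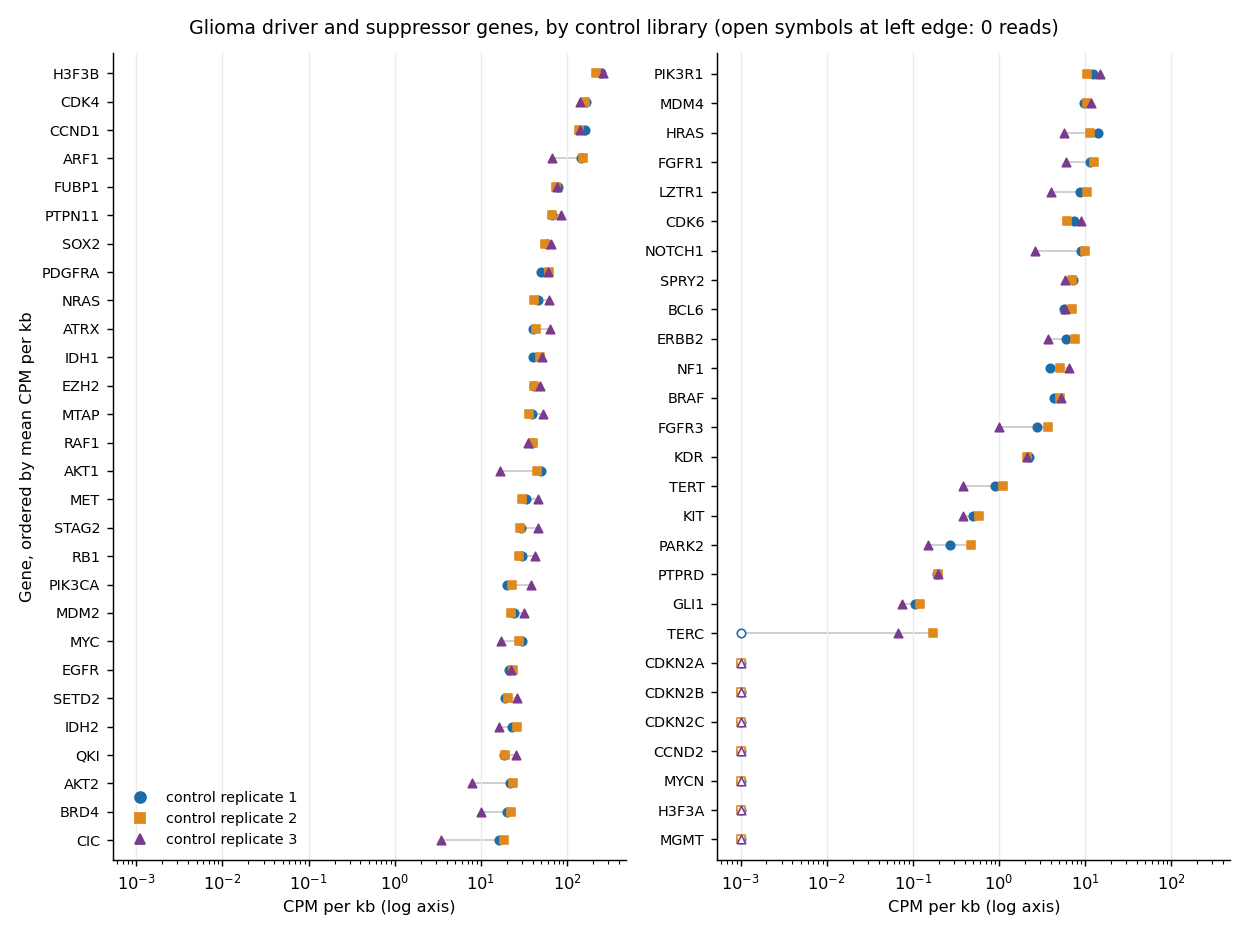
CPM per kb of 55 of the 59 glioma driver and suppressor genes in each control library, on a log axis and ordered by the mean, with open symbols at the left edge for 0 reads. CDKN2A, CDKN2B, CDKN2C, CCND2, MYCN, H3F3A and MGMT are at 0 in all 3 libraries, and CIC and AKT1 show replicate 3 below the others.

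Some neighbours of the cell-cycle inhibitors on the chromosome had no read either, while others close by had many. MTAP, a methionine salvage enzyme (chromosome 9, 21792635 to 21855969 in hg18), had 9178, 6939 and 8634 reads with each of its 8 exons covered. Directly beyond it, C9orf53 and CDKN2A (chromosome 9, 21957751 to 21984490, 4 exons) had no read in any exon, the antisense transcript CDKN2BAS had 0, 1 and 0 reads and CDKN2B (chromosome 9, 21992902 to 21999312, 2 exons) none. Reads resumed at DMRTA1 (chromosome 9, 22436840 to 22442472) with 394, 306 and 471. Of the genes listed for 9p21, 8 of 32 (25%, and 8 without replicate 3) were detected, and among the rest are the interferon genes, which most uninduced cells do not transcribe. IFNE had 35, 30 and 26 reads, and the other interferon genes of the list had at most 4 in a library. On chromosome 1, 5 genes in a row had no read, ELAVL4, DMRTA2, FAF1, CDKN2C (chromosome 1, 51206955 to 51212897) and C1orf185. FAF1, a ubiquitin-binding adaptor (chromosome 1, 50679523 to 51198524), has 19 exons and no named processed pseudogene. The next gene, RNF11, chosen like FAF1 after its values were seen, had 6619, 4921 and 6111 reads. MGMT (chromosome 10, 131155444 to 131455773) and EBF3 beside it had no read, between MKI67 and GLRX3 (6828, 4940 and 6405 reads). Read counts cannot tell a missing stretch of DNA from genes that are not transcribed. INSR, the insulin receptor (chromosome 19, 7063266 to 7245011), also named after its values were seen, had 0, 4 and 0 reads over 22 exons, whereas its relative IGF1R had 272, 307 and 237 CPM.

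**Figure D5:**
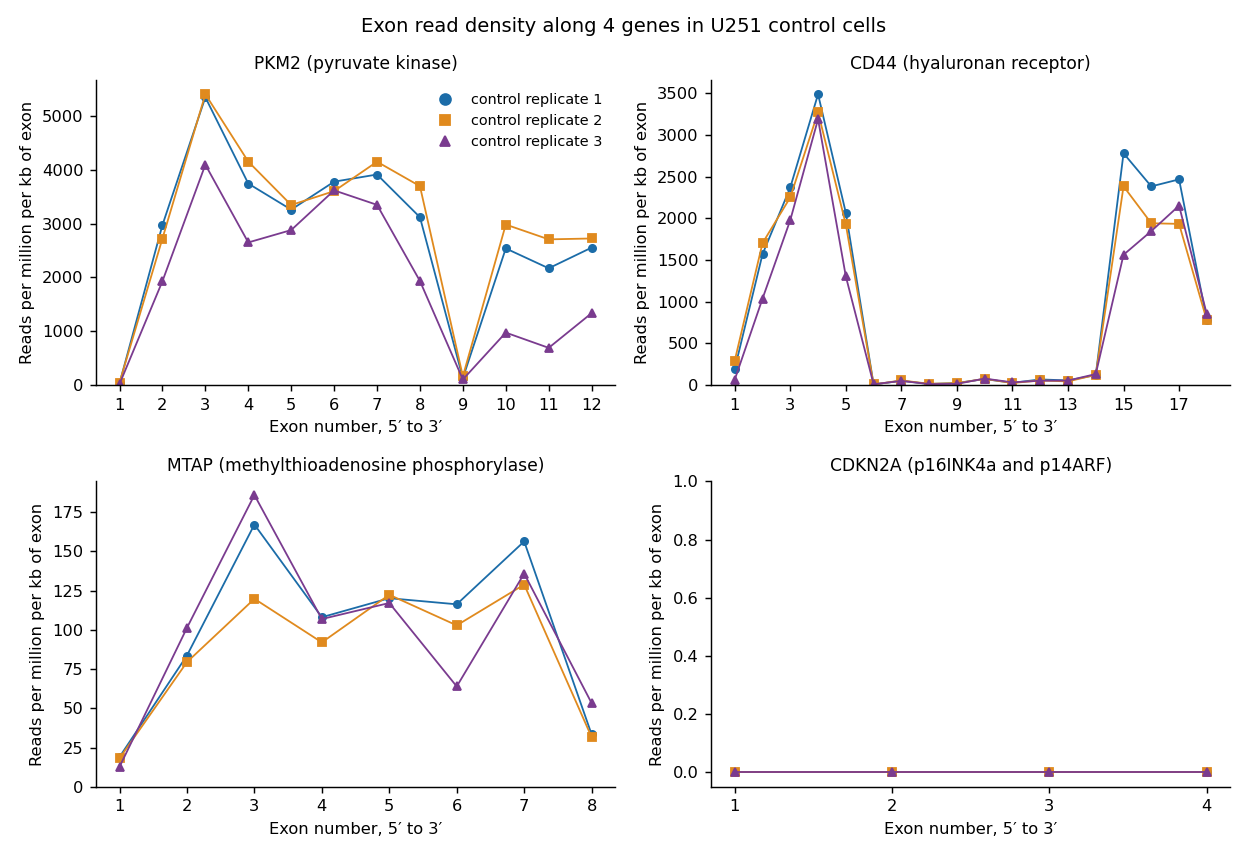
Exon counts scaled to CPM and divided by exon length in kb, along the exons of PKM2, CD44, MTAP and CDKN2A in 5′ to 3′ order, with 1 line for each control library. PKM2 drops at exon 9 and recovers at exon 10, CD44 is low over exons 6 to 14, MTAP is covered in all 8 exons and CDKN2A is at 0 in all 4.

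Runs of 5 or more adjacent genes without a read numbered 110 over all chromosomes but Y. The longest held 70 genes on chromosome 14 (100491460 to 101099542 in hg18) from SNORD114-5 to DIO3. It was followed by 46 genes on chromosome 19 holding a microRNA cluster (58827122 to 58983839) and 36 of the SNORD115 group on chromosome 15 (22966963 to 23066098). Over all matched genes of these classes, 93.4% of microRNA genes and 53.7% of snoRNA genes had no read. Why the runs lack reads was not tested. The next were 35 genes on chromosome 21 (30460132 to 31332666) from CLDN17 to KRTAP19-8, and 32 on chromosome 1 (246125512 to 246969774) beginning with the olfactory receptor OR2W3.

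Most promoters matched to detected genes were rich in CpG. RefSeq promoters (250 bases before to 50 after the start, GRCh38.p14) were sought for 11770 of the 11785 detected genes. They could be matched for 9539 of these 11770 (81.0%). For the genes with no read the match was 55.9%, so a comparison with them is void. Of the 14062 promoters of detected genes, 76.7% had an observed to expected CpG ratio above 0.6, against 48.9% of all 35116 RefSeq promoters. The latter belong to 27305 genes, more than the 20848 genes counted here, so they are not a baseline of the counted genes alone. The letters TATAAA (either strand) within 60 bases before the start were found in 2.07% of promoters of detected genes and in 8.4% of those of the 100 most abundant detected genes, against 3.75% of all. CCAAT (either strand, anywhere in the 300 bases) was found in 35.4%, 50.4% and 34.6%. For the 100 most abundant detected genes, both shares rest on only 119 promoters of 84 matched genes. Promoters of detected genes are part of this whole RefSeq set, a gene can have several listed starts, and these letters are a description and not a site. Examples are shown with each CG in capitals, since genes without a read occurred with both dense and sparse CG: HSPA8 and SOX2 were expressed, whereas MGMT and MAG had no read.
HSPA8: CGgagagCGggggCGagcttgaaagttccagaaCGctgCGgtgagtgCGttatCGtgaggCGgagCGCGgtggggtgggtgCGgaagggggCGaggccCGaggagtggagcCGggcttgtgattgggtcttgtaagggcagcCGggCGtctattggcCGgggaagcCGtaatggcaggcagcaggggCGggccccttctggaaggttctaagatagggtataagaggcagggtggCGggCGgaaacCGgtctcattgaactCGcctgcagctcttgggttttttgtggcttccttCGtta
SOX2: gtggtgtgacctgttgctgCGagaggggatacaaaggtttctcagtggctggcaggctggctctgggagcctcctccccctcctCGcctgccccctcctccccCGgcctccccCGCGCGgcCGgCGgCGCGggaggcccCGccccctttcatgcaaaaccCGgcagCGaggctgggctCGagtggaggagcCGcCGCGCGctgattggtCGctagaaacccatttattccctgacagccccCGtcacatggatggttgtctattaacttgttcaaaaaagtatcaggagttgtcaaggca
MGMT: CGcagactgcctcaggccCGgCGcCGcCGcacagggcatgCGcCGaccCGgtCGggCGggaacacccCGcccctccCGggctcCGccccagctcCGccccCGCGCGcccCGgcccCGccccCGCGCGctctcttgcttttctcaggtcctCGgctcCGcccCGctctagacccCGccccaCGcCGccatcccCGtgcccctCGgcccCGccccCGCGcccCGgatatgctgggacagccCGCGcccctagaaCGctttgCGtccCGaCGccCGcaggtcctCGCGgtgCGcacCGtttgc
MAG: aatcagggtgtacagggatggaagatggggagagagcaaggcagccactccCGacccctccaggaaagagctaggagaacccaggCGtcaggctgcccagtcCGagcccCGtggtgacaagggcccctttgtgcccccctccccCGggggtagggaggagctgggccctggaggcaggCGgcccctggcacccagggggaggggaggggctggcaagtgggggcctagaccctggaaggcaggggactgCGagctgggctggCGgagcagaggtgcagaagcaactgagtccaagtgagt
HSPA8 (2794, 2127 and 2728 CPM, chromosome 11, 123062087 to 123062386, minus strand) has 24 CG in 300 bases, a ratio of 0.938. SOX2 (chromosome 3, 181711675 to 181711974, plus strand) has 20 and a ratio of 0.667. MGMT (chromosome 10, 129466991 to 129467290, plus strand) has the most of these, 45 and 1.06, with no read from the gene. MAG (chromosome 19, 35291911 to 35292210, plus strand) has 8 and 0.243.

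Among receptor tyrosine kinases 29 of 51 (56.9%, and 30 without replicate 3) were detected, much as the 56.5% of all genes. AXL, the receptor for GAS6, was highest per length at 77.6 ± 16.2 CPM per kb (455, 312 and 335 CPM), followed by EPHA2 at 67.3 ± 28.8, PDGFRA and EPHA3 at 48.8 ± 10.3. EPHA2, an ephrin receptor, had 337, 325 and 134 CPM and was lowest in replicate 3, with a transcript of 60.3% GC, while EPHA3 had 266, 309.9 and 402 CPM and was highest there, with 40.6% GC. AXL was above PDGFRA and EPHA3 per length in every library, while the range of EPHA2 overlapped those of all the others. FLT3, LTK, EPHA8 and EPHB6 had no read.

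The list of secreted growth factors and cytokines, which leaves out matrix proteins such as SPARC, was led by SPP1 and DKK1. Of growth factors and cytokines 38 of 62 (61.3%, and 39 without replicate 3) were detected, near the 56.5% of all genes. SPP1 (osteopontin, a ligand of CD44) had 540.3, 516 and 514 CPM, DKK1, an inhibitor of WNT signalling, 279.5, 281 and 376, and the monocyte attractant CCL2 74.7, 75.3 and 91.1. PTN and MDK, related heparin-binding growth factors, had 111, 88.7 and 104 and 78.7, 92.6 and 31.7 CPM, and FGF2 280.3, 268 and 355 CPM. IGF2, GDNF, NTF3, GREM1, CXCL1 and IL33 had no read. MIF, a cytokine that many tumours express, was listed at 21, 19 and 3 reads.

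Of immune checkpoint ligands and suppressive factors 17 of 33 (51.5%, and 17 without replicate 3) were detected, slightly below the 56.5% of all genes. After LGALS1 and CCL2, CD276 (B7-H3) had 213, 221 and 103 CPM, the tumour necrosis factor family ligand CD70 39.7, 42.1 and 13.4, the poliovirus receptor PVR 114, 118 and 92.3 and LGALS3 47.3, 69.7 and 82.3. CD274 (PD-L1), named after its values were seen, had 22.3, 15.5 and 19.1 CPM. The costimulatory CD80 and CD86, of professional antigen-presenting cells, had no read. In antigen presentation 8 of 15 (53.3%, and 8 without replicate 3) of the genes in the table were detected, with B2M at 1077, 947 and 1382 CPM. Most class I and II genes of the major histocompatibility complex were not analysed here.

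Of the channel and transporter list 30 of 48 (62.5%, and 31 without replicate 3) were detected, near the 56.5% of all genes. SLC7A11, the exchanger that takes up cystine and releases glutamate, had 779, 826 and 888 CPM, and its partner chain SLC3A2 196, 196 and 112. The glutamine carriers SLC38A2 and SLC38A1 had 570.3, 722 and 1000.1 and 471, 572 and 783 CPM, both lowest in replicate 1 and highest in replicate 3, and SLC1A5 had 218, 242 and 105 CPM, lowest in replicate 3. Their transcripts have 38.1%, 41.3% and 61.3% GC. The glutamate transporters SLC1A3 and SLC1A2 were far lower, as given above.

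Genes of drug and radiation response were on in 43 of 46 (93.5%, and 43 without replicate 3). The thioredoxin reductase TXNRD1 had 1809, 1587 and 1495 CPM, the peroxiredoxin PRDX1 1123, 1094 and 916, the quinone reductase NQO1 545, 534 and 404 and the glutathione transferase GSTP1 236, 266 and 135. ALDH1A3, an aldehyde dehydrogenase that makes retinoic acid, had 389, 386 and 518 CPM. MGMT was the only member without a read.

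Of regional brain transcription factors 21 of 50 (42%, and 23 without replicate 3) were detected, below the 56.5% of all genes. These included MEIS2 (126, 123 and 138 CPM) and FOXA1, a factor better known from endoderm and floor plate (74.7, 79.6 and 136 CPM). OTX2, EN2, PAX2, PAX5 and ATOH1 had no read. Of HOX genes, which are largely off in normal forebrain, 28 of 39 (71.8%, and 31 without replicate 3) were detected, with a list median of 1.8 CPM per kb against 1.81 for all genes. HOXB3 led at 102, 122 and 82.4 CPM, followed per length by HOXC10 (41.9, 41.7 and 26.6 CPM), HOXB7 (23.5, 24.1 and 17.7 CPM) and HOXD10 (20.6, 21.4 and 18 CPM). HOXB1 had no read. Of nuclear receptors 28 of 38 (73.7%, and 28 without replicate 3) were detected, the glucocorticoid receptor NR3C1 highest at 234, 236 and 339.7 CPM, then RARB (24.7 ± 6.37 CPM per kb) and NR2F2 (24.4 ± 2.96).

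Embryonic and germline genes were on selectively. Of the pluripotency and embryonic list 11 of 31 (35.5%, and 11 without replicate 3) were detected. HMGA1 had 216, 222 and 66.3 CPM, the related architectural protein HMGA2 86.8, 99.7 and 159, and the oncofetal RNA-binding proteins IGF2BP2 and IGF2BP3 201, 213 and 213 and 128, 121 and 155, while SOX17, GATA4, UTF1 and PRDM14 had no read. HMGA1 was lower and HMGA2 higher in replicate 3 than in both others. Of the cancer-testis genes 18 of 51 (35.3%, and 19 without replicate 3) were detected: the decoy receptor IL13RA2 (88.5, 84.1 and 126 CPM) and the X-linked MAGEA12 (88.7, 86.8 and 84.9 CPM), MAGEA3 (72.8, 62.4 and 53.7 CPM) and CSAG1 (29.2, 27.8 and 20.3 CPM). MAGEA3, MAGEA6 and MAGEA12 are near-identical copies, so the split of reads between them is uncertain. The genes MAGEC1, MAGEC2, BRDT, DAZL and PIWIL1 had no read.

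Of imprinted genes 20 of 37 (54.1%, and 20 without replicate 3) were detected, near the 56.5% of all genes. MEST had 587, 502 and 601 CPM, PEG10, a gene of retrotransposon origin, 1412, 1175 and 1351, and GNAS, the stimulatory G protein, 804, 851 and 624. IGF2, DLK1, SNRPN, MAGEL2, ZIM2 and PEG3 had no read. Among long noncoding RNAs 21 of 28 (75%, and 21 without replicate 3) were detected: after MALAT1 came NEAT1, the scaffold of paraspeckles, with 612, 867 and 776 CPM, and the snoRNA hosts GAS5 (65.6, 54 and 78.6 CPM), SNHG1 (93.1, 88.2 and 139 CPM) and SNHG3 (82.3, 69.7 and 60.7 CPM). MSI1, the gene that the series as a whole perturbs, had 15.4, 17.9 and 7.41 CPM (59.2% GC) and its paralog MSI2 50.6, 51.6 and 39.3 CPM (52.8% GC). Replicate 3 was the lowest for both.

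In detected genes most exons had reads in every library. Of their 140763 exons, 111566 (79.3%) had at least 10 reads in each library and 131517 (93.4%) at least 1, while 3413 (2.42%) had none in any. Exon profiles were drawn only for genes chosen by name. Among these, CD44 showed a block of low exons: exons 6 to 14, the variable region, lay between 8.17 and 125 CPM per kb, against 1436 to 3317 over exons 2 to 5 and 15 to 17. In FN1 (fibronectin, 245, 250.1 and 227 CPM over the gene) exon 25, of 273 nucleotides, had 132, 101 and 65 reads, 19.8% of the median density of the internal exons. Exon 13, of 298 nucleotides, was at 32.7%. In EGFR exons 16 and 17 had at most 12 reads in a library, and exons 2 to 7 lay between 25.05 and 40.97 CPM per kb, within the range of the exons after them. NF1 had reads in each of its 58 exons.

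The spread between control libraries lay almost wholly with replicate 3. Of 10410 genes with a mean of at least 5 CPM, 1979 (19%) differed 2-fold or more between the highest and the lowest library. In 1915 of these (96.8%) replicate 3 was the library farthest from the middle one, lower in 1853 and higher in 62. Without replicate 3 the number was 13. The common dispersion of edgeR corresponded to a coefficient of variation of 0.304, and to 0.101 without replicate 3. The 15 genes of at least 20 CPM with the widest range were all lowest in replicate 3, among them GPC1, a cell-surface proteoglycan (126, 130.0 and 13.7 CPM), CDC42EP1 (90.2, 83.8 and 9.48 CPM), LAMA5, a laminin chain (289, 427 and 66.8 CPM) and PKD1 (178, 253 and 35.9 CPM, with many near-identical pseudogene copies). Their transcripts had 66.7%, 66.4%, 66.4% and 67% GC, against a median of 47.0% over the genes compared. Between replicates 1 and 2, among the 15 widest gaps, 3 genes were higher in replicate 1 and 12 in replicate 2. The widest were in POSTN, a matricellular protein (54.6, 16.3 and 26.5 CPM), RPS29 (202, 69.6 and 97.9 CPM), the adhesion receptor GPR126 (17.5, 34.6 and 41.1 CPM) and CBS (21.6, 41.6 and 18.3 CPM), named after their values were seen.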

How the data were processed

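Gene and exon read counts of the 3 control RNA-seq samples were analysed. Per the file contents, the authors deposited raw counts of reads for 20848 genes and 206550 exons in each sample, with coordinates in hg18, per the submitters' processing notes. Which aligner, counter, strand setting, annotation and RNA selection were used is not given in the sources used here. Protocol text attached to these samples describes iCLIP, and it says that biological replicates were combined, while the files give 3 separate replicates. Exon counts summed to 60776151, 49472589 and 41850423, more than the gene counts, so a read can count in several exons. Reads of overlapping or antisense genes and of near-identical copies cannot be assigned with certainty.

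CPM scales each gene count by the sum of gene counts of its library, and CPM per kb divides it by the summed exon length. A gene was detected at 1 CPM or more in each library. Values are given per library or as mean ± SD, and no p-values were computed, since 1 group holds no contrast. Dispersion used edgeR 4.0.16 in R 4.3.3 with an intercept alone, tested on simulated data, with TMM factors, and DESeq2 1.42.0 size factors as an alternative. GC content came from the longest GENCODE 29 transcript of each gene, and promoters and gene types from RefSeq (GRCh38.p14), matched by symbol or synonym. Alternatives were other normalisations, thresholds and lengths, exon counts, and leaving out each library.

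The text names the 25 genes highest by CPM and by CPM per kb, the glioma driver genes, the 15 genes with the widest range, genes of the exon profiles and of runs without reads, and in each of 41 lists the defining markers, up to 6 members highest per length and members without reads. Other genes were chosen after their values were seen, among them RNF11, GLRX3, DMRTA1, INSR, LDHA, MIF, CHI3L1, CD274, POSTN, GPR126 and CBS. Members and lists were chosen with earlier results of these data known. Some genes that this rule names are not reported here. Levels of genes that report a donor's sex, and the knockdown and iCLIP samples, were not analysed here. Counting intervals cover counting error only.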

Additional observations from a re-analysis of the deposited data

How the results depend on the processing

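No paired analysis was possible because only the control group was analysed and no contrast was fitted. The number of detected genes ranged from 10683 (1 CPM per kb) to 15053 (at least 1 read in each library) over its alternatives, and without 1 library from 11810 to 12157. Genes without a read numbered 5534 with a limit of 0.1 CPM in place of 0. Of the 1330 distinct genes in the lists 852 were detected, and 783 at 1 CPM per kb. With that limit the pericyte list fell from 8 to 4 detected members. The oligodendrocyte list fell from 7 to 4 and the endothelial list from 4 to 2. Weighting genes per length raised the share of the 10 most abundant genes from 4.83% to 6.79%, that of the 100 most abundant from 17.1% to 24.6% and that of the 335 genes in 7 lists (ribosomal proteins, translation factors, glycolysis, cytoskeleton, matrix, chaperones, oxidative phosphorylation) from 16.7% to 27.5%. It lowered the number of genes that reach 50% of all counts from 960 to 651, and summing exon counts gave 929. Genes differing 2-fold or more numbered 1979, 1104 when a mean of 20 CPM was required, and 13 to 1796 without 1 library, the 13 being without replicate 3. The coefficient of variation was 0.304, and 0.101 to 0.377 without 1 library, lowest without replicate 3. Of 325 gene levels per kb, 73 moved by more than 1 SD with exon counts and 14 with the length of read exons only. Calls near 1 CPM are limited by depth, since 1 CPM is 32.9 to 47.3 reads.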
